A study of Mus musculus with 22 samples.

Results

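The 31 genes described here encode the enzymes of cholesterol and fatty acid synthesis, the proteins that sense and move sterol, and a pair of cholesterol export pumps. They were taken by symbol from a list chosen with earlier results of these data known, and all 31 were found among the 78298 genes of the deposited tables. By role they were 7 genes of the mevalonate and isoprenoid steps, 11 of the squalene and sterol steps, 4 of sterol sensing and transport, 7 of fatty acid synthesis and 2 of cholesterol efflux. Messenger RNA was sequenced in 22 libraries in a study of how sex bears on natural killer (NK) cell immunity against pancreatic cancer. NK cells, lymphocytes that kill tumour cells, came from spleens of female donors (samples 1 and 2) and male donors (samples 4 and 5). They were sequenced fresh and untreated, after monoculture for 24 h with IL-2, and after co-culture with Panc02 cells for 24 h with IL-2. Panc02 is a mouse cell line derived from pancreatic cancer, sequenced as 2 cultures with no treatment named and as 8 allograft tumours, numbered 1 to 4 in female mice and 5 to 8 in male mice. Strain and age of the mice are not given in the sources used here, and co-culture libraries are labelled with both cell types. The labels do not say that samples came from separate animals or cultures, so the p-values below reflect only how these samples spread, and that spread may be technical.

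Cells build cholesterol from acetyl-CoA through mevalonate, farnesyl pyrophosphate, squalene and lanosterol, and build fatty acids from the same acetyl-CoA by way of malonyl-CoA. The membrane-bound transcription factors SREBP-1 and SREBP-2, encoded by Srebf1 and Srebf2, switch on both branches when membrane sterol is low, with SREBP-2 acting more on the cholesterol genes and SREBP-1 more on the fatty acid genes, and Insig proteins hold them in the endoplasmic reticulum when sterol is plentiful. When sterol accumulates, oxysterols activate the liver X receptors (LXR), which raise the export pumps Abca1 and Abcg1. Lymphocytes are known to switch on lipid synthesis when they grow, and tumour cell lines commonly keep it on in culture.

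Promoters were read from RefSeq on the build GRCm38.p6, in windows from 250 bases before to 50 bases after each annotated start, and 24 of the 31 genes had a window. The letters searched on both strands were TCACNCCAC, a form of the sterol regulatory element bound by SREBPs, and its shorter form CACNCCAC. The others were CCAAT, the site of NF-Y, GGGCGG, the site of Sp1, and CACGTG, an E-box. Of the 30 windows of the genes described here, 70% held CCAAT and 73.3% held GGGCGG, against 37.4% and 35.7% of all 32851 promoter windows. CACGTG was in 16.7% against 7.15%, and TCACNCCAC in 3.33% against 1.24%, which was the window of Hmgcs1 alone. The shorter CACNCCAC was in 10% against 6.24%, in the windows of Hmgcs1, Insig1 and Acat2. A match is a run of letters and not a shown binding site. The 160 bases before the start are printed 5′ to 3′ on the gene's strand for 6 genes that the results below turn on, of the early mevalonate branch (Hmgcs1, Idi1), the sterol steps (Cyp51, Msmo1), fatty acid synthesis (Fasn) and efflux (Abca1). Capitals mark the 4 sets of letters on either strand, and in Fasn the run CCAATTGG holds CCAAT on both strands, overlapping.
Hmgcs1 (chr13:119690191-119690350, plus strand): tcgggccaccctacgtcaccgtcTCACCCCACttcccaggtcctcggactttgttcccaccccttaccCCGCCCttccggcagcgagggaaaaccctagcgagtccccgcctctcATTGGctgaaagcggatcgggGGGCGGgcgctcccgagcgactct
Idi1 (chr13:8885446-8885605, plus strand): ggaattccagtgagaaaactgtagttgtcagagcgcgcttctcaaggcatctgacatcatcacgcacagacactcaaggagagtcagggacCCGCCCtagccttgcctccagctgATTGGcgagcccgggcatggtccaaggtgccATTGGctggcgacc
Cyp51 (chr5:4104698-4104857, minus strand): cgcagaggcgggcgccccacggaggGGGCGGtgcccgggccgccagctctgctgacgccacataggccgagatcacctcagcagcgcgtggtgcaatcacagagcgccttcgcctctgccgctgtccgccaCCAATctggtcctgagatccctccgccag
Msmo1 (chr8:64733579-64733738, minus strand): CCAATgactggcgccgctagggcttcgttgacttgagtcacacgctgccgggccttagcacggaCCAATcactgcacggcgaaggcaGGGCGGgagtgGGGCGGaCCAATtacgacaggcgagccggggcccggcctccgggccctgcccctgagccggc
Fasn (chr11:120824548-120824707, minus strand): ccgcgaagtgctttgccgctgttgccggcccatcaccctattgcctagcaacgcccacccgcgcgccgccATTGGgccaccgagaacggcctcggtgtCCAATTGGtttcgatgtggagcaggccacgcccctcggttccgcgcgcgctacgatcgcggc
Abca1 (chr4:53159896-53160055, minus strand): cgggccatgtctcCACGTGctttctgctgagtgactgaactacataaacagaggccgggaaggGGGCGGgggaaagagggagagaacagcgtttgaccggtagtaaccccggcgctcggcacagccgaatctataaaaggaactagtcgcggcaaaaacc
The windows of Hmgcs1, Idi1, Cyp51 and Msmo1 each held both CCAAT and GGGCGG, that of Fasn held CCAAT 3 times and no GGGCGG, and that of Abca1 held GGGCGG and CACGTG and no CCAAT.

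Libraries held 13025549 to 46842646 counts. Levels below are in CPM, a gene's counts scaled to a common total of gene counts per library, and TPM, scaled likewise after division by exon length, is used where genes are compared with each other. The summed level of 8 NK cell markers was 8148 to 9303 CPM in fresh cells and 8413 to 9373 CPM in monoculture, so these libraries carried the labelled cell type. In Panc02 6 of the 8 NK markers had 0 counts, but 1 had a mean of 1 CPM or more, and all 8 summed to 17.7 to 19.7 CPM. There the keratins Krt8 and Krt18 stood at 1437 to 1438 and at 956 CPM, and the epithelial adhesion gene Epcam stood at 0.855 to 1.11 CPM, close to absent. Fresh NK libraries also carried red cell precursor markers (527 to 1046 CPM summed over 8 genes), which stood at 142 to 276 CPM in monoculture. Fresh and cultured libraries differ in RNA extraction as well, on oligo(dT) beads for sorted cells and with TriZOL for cell experiments, and culture and extraction cannot be told apart.

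**Figure D1:**
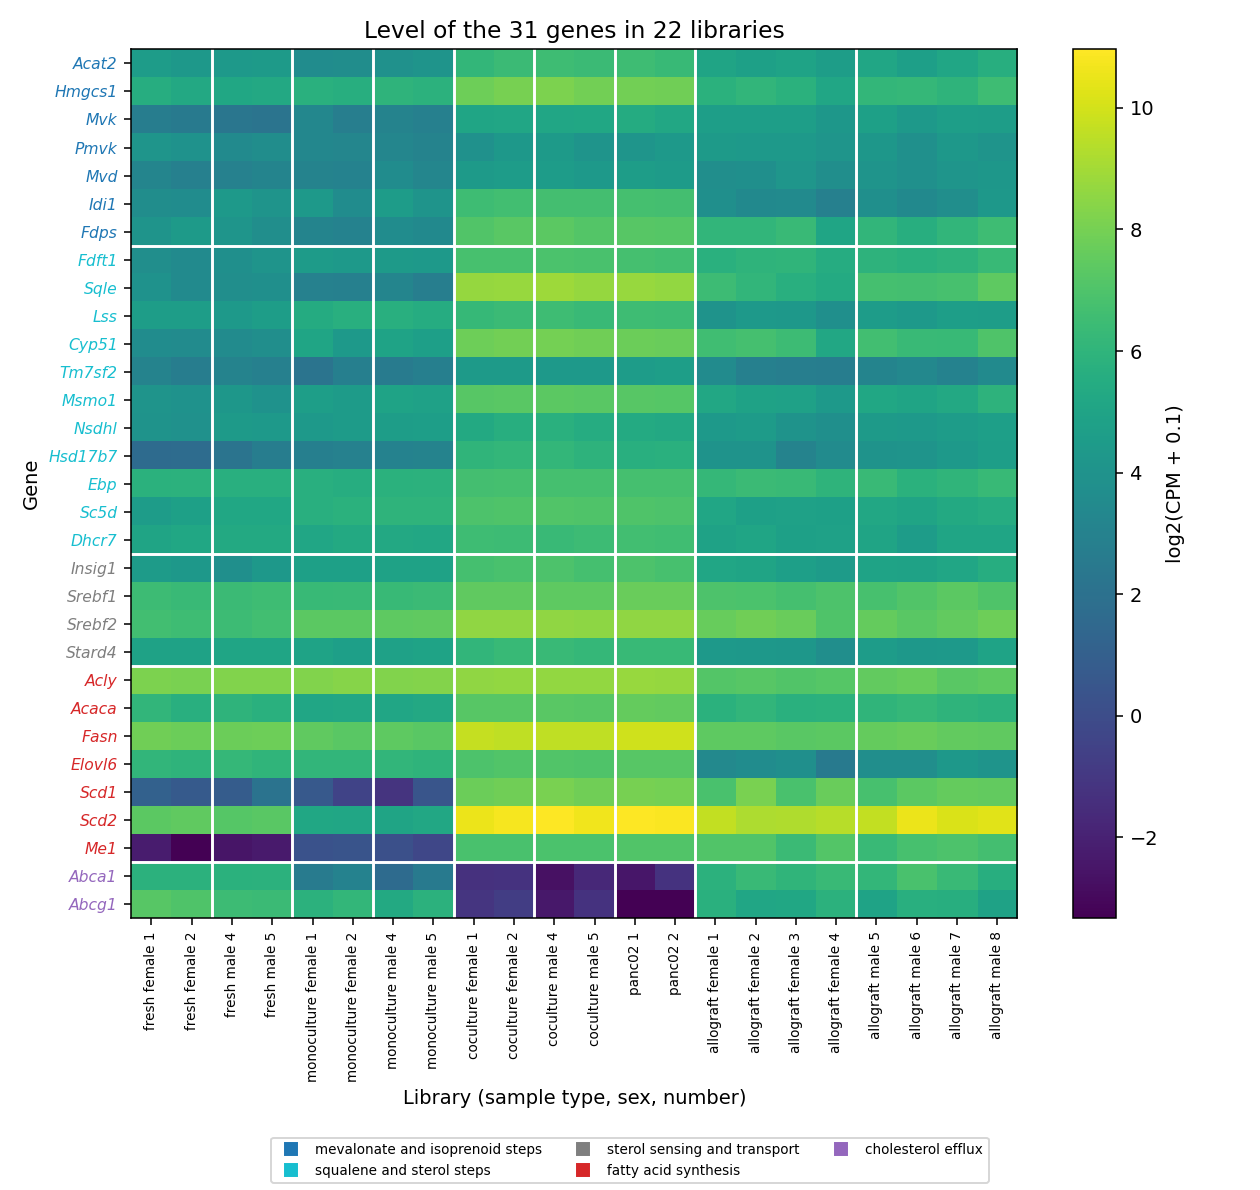
Level of each of the 31 genes (rows, coloured by role) in each of the 22 libraries (columns, by sample type, sex and number), as log2(CPM + 0.1) on the colour scale. The co-culture and Panc02 columns are the brightest for the synthesis genes, and Abcg1 is at 0 counts in both Panc02 libraries.

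The tumour line carried far more message for lipid synthesis than fresh NK cells did. All 29 synthesis, sensing and transport genes were higher in cultured Panc02 than in fresh NK cells, with a median log2 difference of 2.14, and both efflux genes were lower. Of all 20243 genes tested, 36.2% were called higher and 38% lower, with a median log2 difference of -0.02. A call here and below is an adjusted p under 0.05 from edgeR's quasi-likelihood test with Benjamini-Hochberg adjustment over all genes tested. Groups that did not overlap are described gene by gene. The share of all genes that stood apart in this way was counted only between host sexes, so elsewhere it is no support beyond the call. The fresh libraries also serve the comparison with monoculture below, and the Panc02 libraries those with co-culture and allografts, so these comparisons share samples. Fresh values are given in the order female 1, female 2, male 4 and male 5.

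In the mevalonate steps, Hmgcs1, which makes HMG-CoA, stood at 47, 39.5, 36.6 and 38.8 CPM in fresh NK cells and at 244.9 and 235.7 CPM in Panc02 (log2 difference 2.64, SE 0.08, adjusted p = 4.83e-10). Idi1, the isomerase of the isoprenoid unit, stood at 12.8, 12.1, 20.6 and 16.7 CPM and 105.3 and 102.8 CPM (log2 difference 2.84, SE 0.09). Fdps, which joins isoprenoid units to farnesyl pyrophosphate, stood at 16.6, 21.5, 17.1 and 13.3 CPM and 150.2 and 144.4 CPM (log2 difference 3.21, SE 0.10). For these 3 genes each Panc02 library lay above each fresh library. Mvk, the mevalonate kinase, stood at 6.47, 5.76, 4.71 and 4.46 CPM and 43.8 and 38.4 CPM (log2 difference 3.02, SE 0.12). Acat2, the thiolase that starts the pathway, stood at 24.1, 19.6, 20.2 and 22.3 CPM and 93.4 and 80.1 CPM (log2 difference 2.07, SE 0.10), and Mvd, the decarboxylase that yields the isoprenoid unit, at 8.97, 7.29, 7.72 and 8.52 CPM and 24.6 and 23 CPM (log2 difference 1.61, SE 0.13). The smallest difference of the 7 was in Pmvk, the phosphomevalonate kinase, whose groups met at 17.1, 15.4, 11.4 and 12.9 CPM against 17.1 and 20.1 CPM (log2 difference 0.47, SE 0.13, adjusted p = 0.0085). Its call was lost without Panc02 replicate 2 (adjusted p = 0.131).

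All 11 genes of the sterol steps were higher in the line as well. Cyp51, the demethylase of lanosterol, stood at 12.1, 11.9, 11.8 and 13.1 CPM in fresh NK cells and at 212.5 and 205.9 CPM in Panc02 (log2 difference 4.16, SE 0.07, adjusted p = 1.19e-11). Sqle, the squalene epoxidase and a rate-limiting step, stood at 15.7, 11.1, 13 and 13.6 CPM and 428.6 and 400.9 CPM (log2 difference 5.00, SE 0.10), a 32-fold difference. Msmo1, which oxidises the methyl groups of methylsterols, stood at 16.5, 15.5, 18.6 and 15.6 CPM and 154.7 and 148.1 CPM (log2 difference 3.26, SE 0.08). None of these groups overlapped. Sc5d, a late sterol desaturase, stood at 23.7, 28.2, 36.4 and 37 CPM and 131.1 and 126.6 CPM (log2 difference 2.14, SE 0.07). Fdft1, the squalene synthase, stood at 13.4, 11.3, 13.7 and 17 CPM and 108.7 and 99.3 CPM (log2 difference 2.97, SE 0.10), and Hsd17b7, a ketoreductase of the demethylation steps, at 3.09, 3.22, 4.48 and 6.51 CPM and 51.2 and 53.3 CPM (log2 difference 3.71, SE 0.14). The other 5 sterol enzymes were higher by 1.07 (Ebp, the sterol isomerase) to 1.99 (Lss, the lanosterol synthase) on the log2 scale.

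Among the sensors, Srebf2 stood at 100.6, 93.4, 88.8 and 99.1 CPM in fresh NK cells and 390.6 and 381.0 CPM in Panc02 (log2 difference 2.09, SE 0.07), and Srebf1 at 90, 83, 86.5 and 91.3 CPM and 203.9 and 205.2 CPM (log2 difference 1.29, SE 0.06). Insig1 stood at 23.1, 19.7, 14 and 19.4 CPM and 124.2 and 113.6 CPM (log2 difference 2.71, SE 0.12), and Stard4, which carries cholesterol between membranes, at 29.8, 30.4, 33.8 and 33.5 CPM and 79.8 and 78.7 CPM (log2 difference 1.39, SE 0.07). All 4 were higher in the line, with groups that did not overlap. In the fatty acid branch, Scd1 and Scd2, the desaturases that make oleate (chr19:44382894-44396318 and chr19:44282113-44295303 on GRCm39), stood at 2.05, 1.54, 1.66 and 4.27 CPM and 166.7, 175.5, 144.0 and 157.7 CPM in fresh NK cells. In Panc02 the same genes stood at 260.3 and 251.7 CPM and 1971.2 and 1905.6 CPM (log2 difference 6.78, SE 0.23 for Scd1 and log2 difference 3.67, SE 0.06 for Scd2). Reads that map to more than 1 place were counted, so reads shared between the Scd genes may be split uncertainly. Me1, the malic enzyme that supplies NADPH, was near absent in fresh NK cells at 0.113, 0, 0.0772 and 0.108 CPM and stood at 133.1 and 134.4 CPM in Panc02 (log2 difference 10.57, SE 0.16). Fasn, the fatty acid synthase, stood at 237.1, 215.4, 214.5 and 226.5 CPM and 979.9 and 982.3 CPM (log2 difference 2.21, SE 0.06), and Acaca, which makes malonyl-CoA, at 66.8, 50.8, 62.4 and 54.4 CPM and 191.9 and 186.2 CPM (log2 difference 1.75, SE 0.10). Elovl6, which lengthens the product of Fasn, stood at 67.5, 63.2, 72 and 65.7 CPM and 151.4 and 150.6 CPM (log2 difference 1.24, SE 0.06). Acly, which makes cytosolic acetyl-CoA from citrate, differed least in this branch, at 279.5, 270.9, 300.2 and 307.0 CPM against 424.8 and 421.0 CPM (log2 difference 0.62, SE 0.05).

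Per length, Scd2 was the highest of the 31 genes in Panc02, at 1071 ± 25.4 TPM (SD, n = 2), followed by Fasn at 271 ± 0.536 TPM and Acly at 242 ± 1.48 TPM. In fresh NK cells the highest was Acly at 165 ± 12.4 TPM (SD, n = 4), followed by Scd2 at 88.7 ± 6.07 TPM and Ebp at 70.1 ± 2.64 TPM. Of 16 further sterol synthesis and SREBP pathway genes tested, 14 were higher and 1 was lower in Panc02. Aacs, which activates acetoacetate, differed by 2.73 and Tmem97, a sterol-regulated membrane protein, by 2.24 on the log2 scale. Of 20 further fatty acid and lipid storage genes 11 were higher and 4 lower, with Hsd17b12, an elongation enzyme, at 2.46, and Lpin1, a phosphatidate phosphatase, at -4.07. The acetate-activating enzyme Acss2 differed by -3.61 and the desaturase family member Fads3 by 4.60.

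After 24 h of culture with IL-2, 7 of the 11 squalene and sterol genes of NK cells had risen, while Scd2, Fasn, Acaca and both efflux genes had fallen. Of the 31 genes 13 rose and 9 fell against fresh cells, and in this comparison 22.1% of the 21414 genes tested were called higher and 21.1% lower. With total-count scaling 39.8% of the calls over all genes were higher, in place of 51.2%, while of the 31 genes 13 rose and 10 fell. The share that rose was above that background and the share that fell was nearer to it, and the median log2 change was 0.12 against 0.01 over all genes. By role, 7 of 11 squalene and sterol genes rose and 1 fell (median log2 change 0.73), 2 of 7 mevalonate genes rose and 3 fell (median 0.30), and 2 of 4 sensing genes rose. In fatty acid synthesis 2 of 7 rose and 3 fell (median -0.34), and both efflux genes fell. Monoculture values below are in the same order of samples as the fresh values above.

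Of the sterol steps, Cyp51 rose most, to 33.9, 20.4, 31.1 and 26.5 CPM (log2 change 1.27, SE 0.14, adjusted p = 1.71e-05), and its 4 cultured libraries all lay above the 4 fresh ones. Lss stood at 25, 25, 21 and 24.2 CPM fresh and 44.9, 51.1, 50.7 and 46 CPM in monoculture (log2 change 1.12, SE 0.08, adjusted p = 5.12e-09). Sc5d stood at 51.6, 55.6, 62.6 and 62.5 CPM in monoculture (log2 change 1.02, SE 0.06, adjusted p = 1.01e-09). By the fitted log2 changes, each of these 3 enzymes was at about 2.03 to 2.41 times its fresh level. The ratios of mean CPM within a sex were 1.7 (Sc5d, male cells) to 2.31 (Cyp51, male cells). Hsd17b7 stood at 7.18, 7.75, 8.1 and 8.22 CPM (log2 change 1.01, SE 0.12, adjusted p = 3.4e-06), Msmo1 at 25.6, 23, 31.6 and 28.7 CPM (log2 change 0.81, SE 0.07, adjusted p = 1.28e-07) and Fdft1 at 22.5, 21.2, 21.8 and 21.1 CPM (log2 change 0.73, SE 0.08, adjusted p = 1.51e-06), with no overlap between fresh and cultured libraries. Nsdhl, a dehydrogenase of the demethylation steps, rose less and its groups overlapped, at 16.1, 14.8, 21.8 and 20.3 CPM fresh and 20.5, 22.8, 24.9 and 25.8 CPM in monoculture (log2 change 0.48, SE 0.09, adjusted p = 0.0004). Sqle went the other way, with 7.59, 7.22, 9.07 and 6.7 CPM in monoculture, all below the fresh libraries (log2 change -0.73, SE 0.11, adjusted p = 0.000136). Ebp, Dhcr7, which catalyses the last reduction, and Tm7sf2, a sterol reductase, were not called, with log2 changes of 0.09, 0.12 and -0.20. Without monoculture female 2 Tm7sf2 was called lower (log2 change -0.48, adjusted p = 0.0238).

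Within the mevalonate steps, Hmgcs1 rose to 54.3, 49, 63.1 and 58.1 CPM (log2 change 0.56, SE 0.08, adjusted p = 1.41e-05) and Mvk to 9.71, 6.78, 8.14 and 7.31 CPM (log2 change 0.67, SE 0.13, adjusted p = 0.000354). Fdps fell to 8.62, 7.86, 12.3 and 10.8 CPM (log2 change -0.69, SE 0.11, adjusted p = 6.76e-05), Acat2 to 12.3, 12.7, 15.1 and 16.5 CPM (log2 change -0.52, SE 0.09, adjusted p = 0.000236) and Pmvk to 9.85, 9.27, 9.14 and 8.41 CPM (log2 change -0.52, SE 0.13, adjusted p = 0.00454). By these calls, neighbouring steps of the same route moved in opposite directions, and in all 5 the fresh and cultured libraries did not overlap. Idi1 and Mvd were not called (log2 change 0.35 and 0.30), although Idi1 was called higher without a filter and without monoculture female 2 (adjusted p = 0.00423 and 0.00697). Among the sensors, Srebf2 rose to 163.5, 162.1, 169.3 and 175.3 CPM (log2 change 0.91, SE 0.05, adjusted p = 4.41e-10) and Insig1, an SREBP-2 target as well as its retention factor, to 28.2, 28.2, 30 and 29.5 CPM (log2 change 0.70, SE 0.09, adjusted p = 1.19e-05), both without overlap. Srebf1 and Stard4 were not called, with log2 changes of -0.02 and -0.01 and SEs of 0.05 and 0.08.

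In the fatty acid branch, Scd2 fell from 166.7, 175.5, 144.0 and 157.7 CPM to 36.1, 34.9, 32.2 and 37.7 CPM (log2 change -2.09, SE 0.08, adjusted p = 1.32e-11), the change with the smallest adjusted p of the 31 genes. Acaca fell to 34.9, 37.3, 35.4 and 39.5 CPM (log2 change -0.58, SE 0.08, adjusted p = 2.56e-05) and Fasn to 175.2, 160.3, 168.4 and 157.3 CPM (log2 change -0.34, SE 0.05, adjusted p = 7.31e-05), again with cultured libraries all below fresh ones. Scd1 was low in both states, at 1.5, 0.636, 0.347 and 1.27 CPM in monoculture, and was not called (log2 change -1.42, SE 0.52, adjusted p = 0.0643). It was called lower with total-count scaling, DESeq2, counts halved and only the groups compared, and without fresh male 4 or monoculture male 5 (adjusted p between 0.0216 and 0.0499, log2 change up to -2.07). Acly rose slightly, to 306.7, 326.0, 305.7 and 311.8 CPM, with overlapping groups (log2 change 0.21, SE 0.05, adjusted p = 0.00155), and its call was lost without monoculture female 2 (adjusted p = 0.103). Elovl6 was not called (log2 change 0.09). Me1 rose from 10 counts over the 4 fresh libraries to 137 counts in monoculture, at 1.09, 1.19, 1.02 and 0.726 CPM (log2 change 3.56, SE 0.31, adjusted p = 6.4e-08). A trace of Panc02 RNA was estimated in the monocultures as the median level of 91 genes restricted to the line. It was 0, 0.28, 0.108 and 0.332% of their level in cultured Panc02. The median of 0 in female 1, the monoculture with the fewest counts (14624113), does not show that such RNA was absent. There 8 epithelial and line markers summed to 18.9 CPM, against 18.2 CPM in male 4 and 3.84 to 12.3 CPM in fresh libraries. At these medians the trace would give 0, 0.374, 0.145 and 0.444 CPM of Me1 in the same order, and its part in the rise was not tested. It would give 0, 0.716, 0.277 and 0.849 CPM of Scd1, against the 1.5, 0.636, 0.347 and 1.27 CPM measured. For Scd2 it would give 0, 5.42, 2.09 and 6.43 CPM. The part of the trace in the monoculture levels of Scd1 and Scd2 was not tested either.

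**Figure D2:**
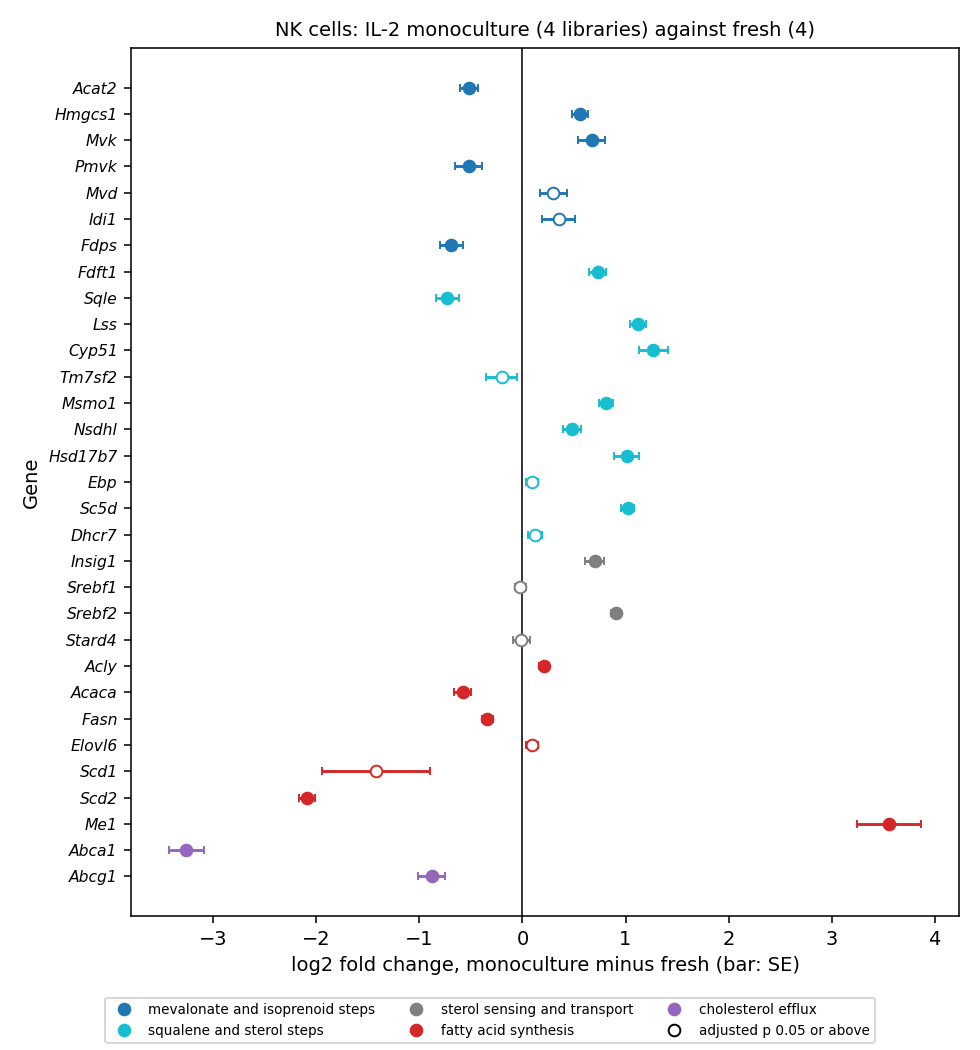
Log2 fold change of the 31 genes in IL-2 monoculture (4 libraries) against fresh NK cells (4 libraries), with the SE as a bar and open symbols where the adjusted p was 0.05 or above. Sterol genes such as Cyp51 (1.27) and Lss (1.12) lie to the right of 0, while Sqle, Scd2 and Abca1 (-3.26) lie to the left.

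Of 17 other sterol and SREBP pathway genes 9 rose and 4 fell, with Aacs at a log2 change of 1.13 among those that rose. Tmem97 at -1.50 and the fatty acid desaturase Fads1 at -1.79 were among those that fell. Of 20 other fatty acid and lipid storage genes 4 rose and 11 fell, including Elovl7, an elongase (-1.18), and Lpin1 (-0.84), whereas Hsd17b12 (0.69) and Mid1ip1, an activator of acetyl-CoA carboxylase (0.82), rose. Of 15 LXR targets and sterol handling genes 4 rose and 7 fell. Apoe, a lipid carrier, changed by -3.68, Scarb1, a lipoprotein receptor, by -3.95 and the sterol pump Abcg4 by -5.00, while Npc1, which exports cholesterol from lysosomes, changed by 1.23.

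Co-culture libraries were mostly Panc02 RNA, since the median of 331 NK-restricted genes put the NK share at 2.8 and 3.4% in the female co-cultures 1 and 2 and at 2.05 and 1.74% in the male co-cultures 4 and 5. Summed over those genes the share was 3.76, 4.26, 2.44 and 2.09% in the same order. The 91 genes restricted to the line had a median level of 94.7, 92.3, 92.8 and 94.8% of that in cultured Panc02. The synthesis genes of these libraries were therefore compared with cultured Panc02 alone. Of the 31 genes 6 were higher and 5 lower in co-culture, where 12.2% of the 18172 genes tested were called higher and 6.12% lower. With total-count scaling 46.7% of the calls over all genes were higher, in place of 66.5%, and of the 31 genes 4 were higher and 8 lower. The differences were small. Of 11 squalene and sterol genes 5 were higher and 0 lower (median log2 difference 0.10), whereas 4 of 7 fatty acid genes were lower and 0 higher (median -0.14), with a median of 0.01 over all genes. None of the 7 mevalonate genes was called, and Srebf1 was the only sensor called. Hmgcs1 was called higher without a filter and without co-culture female 1 or male 5 (log2 difference 0.18 without either library, adjusted p = 0.0243 and 0.0326), and Sqle without the same libraries (adjusted p = 0.0329 and 0.0377). Mvk was called lower with total-count scaling, without a filter and without Panc02 replicate 2 (adjusted p between 0.018 and 0.0484). Dhcr7 and Acly were called lower with total-count scaling (0.0226 and 0.0375). The co-cultures also held IL-2, which is not named for cultured Panc02, and IL-2 and the NK cells cannot be told apart here.

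Hsd17b7 stood at 51.2 and 53.3 CPM in Panc02 and at 64.4, 68.9, 69.2 and 61.2 CPM in co-culture (log2 difference 0.39, SE 0.06, adjusted p = 5.4e-05), all 4 co-cultures above both Panc02 libraries. Cyp51 stood at 212.5 and 205.9 CPM and 227.5, 238.4, 253.7 and 229.2 CPM (log2 difference 0.23, SE 0.04, adjusted p = 0.000429), also without overlap. Fdft1 stood at 111.6, 110.6, 118.9 and 114.4 CPM (log2 difference 0.18, SE 0.05, adjusted p = 0.00709), Nsdhl at 41.8 and 39.2 CPM in Panc02 and 41.3, 48.9, 53.2 and 45.9 CPM in co-culture (log2 difference 0.27, SE 0.07, adjusted p = 0.012), and Msmo1 at 149.2, 158.9, 166.8 and 161.0 CPM (log2 difference 0.12, SE 0.04, adjusted p = 0.0465). The last 3 calls depended on single libraries and, for Fdft1 and Msmo1, on the processing. That of Fdft1 was lost without Panc02 replicate 2 (adjusted p = 0.189) and with total-count scaling (0.0544). That of Nsdhl was lost when co-culture male 4, Panc02 1 or Panc02 2 was left out (adjusted p up to 0.159), and that of Msmo1 when any 1 of 5 libraries, each but co-culture female 1, was left out (adjusted p up to 0.322), and with either other scaling, DESeq2 or no filter (0.06 to 0.268). In the other direction, Fasn stood at 979.9 and 982.3 CPM in Panc02 and 827.4, 762.7, 785.3 and 786.7 CPM in co-culture (log2 difference -0.26, SE 0.03, adjusted p = 4.39e-06). Acaca stood at 191.9 and 186.2 CPM and 152.1, 153.9, 155.9 and 152.9 CPM (log2 difference -0.25, SE 0.04, adjusted p = 5.99e-05), and Srebf1 at 203.9 and 205.2 CPM and 175.1, 177.6, 171.1 and 168.7 CPM (log2 difference -0.19, SE 0.04, adjusted p = 0.000819). In these 3 genes every co-culture lay below both Panc02 libraries. Elovl6 stood at 124.4, 136.6, 135.9 and 127.8 CPM (log2 difference -0.15, SE 0.04, adjusted p = 0.0235) and Me1 at 115.2, 114.6, 120.1 and 122.4 CPM (log2 difference -0.13, SE 0.04, adjusted p = 0.0295), also without overlap, but the call of Elovl6 was lost when any 1 of 4 libraries was left out (co-culture female 1, male 5 and each Panc02, adjusted p up to 0.179) and that of Me1 when any 1 of 5 was (each but co-culture male 5, up to 0.207). The calls of Hsd17b7, Cyp51, Srebf1, Acaca and Fasn held in every setting tried.

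Dilution by NK RNA was set beside these values as the level that each library's NK share, the monoculture mean of that sex and the Panc02 mean would give together. Observed over expected level was 0.8 to 0.863 for Fasn, 0.821 to 0.839 for Acaca and 0.833 to 0.887 for Srebf1 over the 4 libraries, against 1.19 to 1.36 for Hsd17b7 and 1.11 to 1.23 for Cyp51. The expected level takes NK genes at their monoculture level, which was not measured in co-culture, and the part of NK RNA in these differences was not tested. Beside these ratios, the 91 line-restricted genes had a median of 92.3 to 94.8% of their Panc02 level. Of the genes named in every comparison, Srebf2 (log2 difference 0.05), Insig1 (0.00), Hmgcs1 (0.12), Sqle (0.10), Scd1 (-0.06), Scd2 (-0.14) and Abca1 (0.10) were not called. Of the other pathway lists, 1 of 16 sterol genes was higher and 2 were lower (among them Ggps1, a prenyl synthase, at 0.20 and Pcyt2, of phospholipid synthesis, at -0.14). A further 4 of 20 fatty acid and storage genes were higher and 4 lower (Acsl4, an acyl-CoA synthetase, at 0.22, Hsd17b12 at 0.13, Scd3 at -1.17 and Fads3 at -0.19). Of 13 LXR targets and sterol handling genes tested, 5 were higher and 1 lower, among them Nr1h2, an LXR, at 0.29, Npc2, a partner of Npc1, at 0.13, Mylip at 9.02 and Smpdl3a at 4.85. Mylip and Smpdl3a stood at 0 to 0.0237 CPM in Panc02, so their log2 values depend on the smallest counts.

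**Figure D3:**
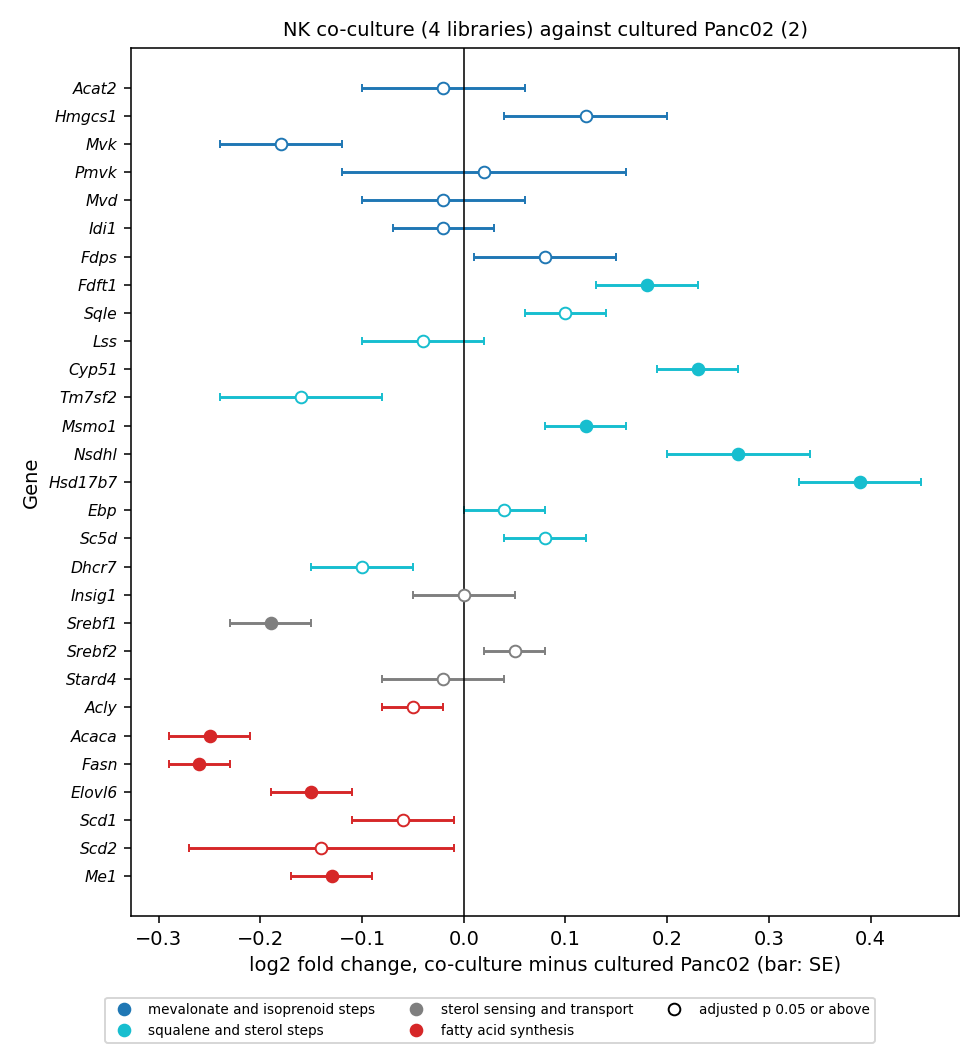
Log2 fold change of the 29 synthesis, sensing and transport genes in NK co-culture (4 libraries) against cultured Panc02 (2 libraries), with the SE as a bar and open symbols where the adjusted p was 0.05 or above. Filled sterol genes lie between 0.12 and 0.39, and filled fatty acid genes and Srebf1 lie between -0.26 and -0.13.

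In the allografts most of the listed genes of lipid synthesis stood below the cultured line. Of 29 synthesis, sensing and transport genes 26 were lower than in cultured Panc02 and 0 were higher, with a median log2 difference of -1.36. In the same comparison 23.3% of the 23264 genes tested were called lower and 38.8% higher, with a median of 0.42 that lay between 0.31 and 0.90 under other scalings and filters. By role, 6 of 7 mevalonate genes, 11 of 11 squalene and sterol genes, 4 of 4 sensing genes and 5 of 7 fatty acid genes were lower. Allografts hold host cells, and in bulk RNA fewer tumour cells and less RNA per cell cannot be told apart. RNA input was 500 ng for allografts and 100 ng for cells, and the allografts were counted apart from cultured Panc02. These differences in handling cannot be told apart from growth as a tumour. Summed macrophage markers stood at 3270 to 6772 CPM in the allografts against 16.1 to 16.6 CPM in Panc02, fibroblast markers at 7398 to 23465 CPM against 1.59 to 1.69 CPM and skeletal muscle markers at 719 to 35988 CPM against 0.897 to 0.902 CPM. The 8 epithelial and line markers summed to 779 to 1820 CPM against 4428 to 4482 CPM, and the part of this makeup in the lower lipid synthesis levels was not tested.

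Over the 8 allografts the lowest, median and highest levels are given, and the Panc02 levels are those above. Idi1 stood at 7.4, 12.1 and 19.7 CPM (log2 difference -3.00, SE 0.20, adjusted p = 7.62e-07) and Hmgcs1 at 35.2, 64.8 and 92.1 CPM (log2 difference -1.87, SE 0.18, adjusted p = 8.06e-06). Acat2 stood at 24.2, 31.9 and 48.8 CPM (log2 difference -1.36, SE 0.18, adjusted p = 8.37e-05), Fdps at 33.1, 68.1 and 92.2 CPM (log2 difference -1.10, SE 0.26, adjusted p = 0.0044) and Mvk at 18.5, 25.3 and 28.1 CPM (log2 difference -0.70, SE 0.14, adjusted p = 0.00161). No allograft reached the Panc02 level of these genes. Mvd stood at 13.1, 15.7 and 18.8 CPM (log2 difference -0.54, SE 0.15, adjusted p = 0.00857), a call lost when either Panc02 library was left out (adjusted p up to 0.0876). Pmvk was the exception in this branch, at 14.4, 19.3 and 21.6 CPM, and did not pass the test (log2 difference 0.06, SE 0.15, adjusted p = 0.733).

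Of the sterol steps, Lss stood at 91.3 and 88.3 CPM in Panc02 and at 13.5, 20 and 25.4 CPM in the allografts (log2 difference -2.10, SE 0.13, adjusted p = 3.68e-07). Sc5d stood at 27.3, 34.1 and 46 CPM (log2 difference -1.84, SE 0.13, adjusted p = 8.96e-07) and Sqle at 41.8, 96.5 and 169.4 CPM (log2 difference -2.17, SE 0.23, adjusted p = 1.87e-05). Sqle was the more variable of these, with a SD of 40.5 CPM around a mean of 92.9 CPM (n = 8). Dhcr7 stood at 98.6 and 96.1 CPM in Panc02 and 23.4, 30.7 and 34.1 CPM in the allografts (log2 difference -1.62, SE 0.13, adjusted p = 2.46e-06), Msmo1 at 20.4, 34.3 and 60.1 CPM (log2 difference -2.04, SE 0.22, adjusted p = 1.59e-05) and Hsd17b7 at 8.34, 16.1 and 25.4 CPM (log2 difference -1.64, SE 0.23, adjusted p = 0.000103). Cyp51, Fdft1, Nsdhl and Tm7sf2 were lower by log2 differences of -1.16, -0.74, -0.92 and -1.44. Ebp stood at 106.5 and 107.4 CPM in Panc02 and 55.7, 75.6 and 83.8 CPM in the allografts (log2 difference -0.49, SE 0.15, adjusted p = 0.0152), and its call was lost without either Panc02 library (adjusted p up to 0.096). Of the sensors, Stard4 stood at 13.1, 19.9 and 30.6 CPM (log2 difference -1.89, SE 0.17, adjusted p = 4.9e-06), Insig1 at 23, 32.2 and 47.7 CPM (log2 difference -1.81, SE 0.17, adjusted p = 7.75e-06), Srebf2 at 129.7, 195.9 and 230.7 CPM (log2 difference -0.95, SE 0.17, adjusted p = 0.000667) and Srebf1 at 108.1, 125.4 and 161.3 CPM (log2 difference -0.63, SE 0.13, adjusted p = 0.00168). All 8 allografts lay below both Panc02 libraries in each of the 4.

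In fatty acid synthesis Fasn varied little between tumours, at 158.6, 172.8 and 208.9 CPM (log2 difference -2.41, SE 0.09, adjusted p = 2.66e-08), that is 18.1% of the Panc02 mean with a range of 16.2 to 21.3% over the 8 tumours. Elovl6, the lowest of the 29 genes relative to the line, stood at 5.89, 13.3 and 19.4 CPM (log2 difference -3.49, SE 0.21, adjusted p = 3.35e-07), or 8.68% of the Panc02 mean. Acaca stood at 53.7, 59.6 and 73.1 CPM (log2 difference -1.57, SE 0.11, adjusted p = 8.63e-07), Acly at 134.2, 154.9 and 196.6 CPM (log2 difference -1.35, SE 0.10, adjusted p = 1.55e-06) and Scd2 at 594.6, 792.5 and 1494.6 CPM (log2 difference -1.05, SE 0.19, adjusted p = 0.000749). Scd1, at 113.1, 175.6 and 268.2 CPM, was not called (log2 difference -0.52, SE 0.30, adjusted p = 0.153), but was called lower without allograft female 2 (adjusted p = 0.0458), whose level was the highest. Me1 was not called either, at 81.5, 117.2 and 141.9 CPM (log2 difference -0.16, SE 0.20, adjusted p = 0.5). For scale, 6 of the 8 epithelial and line markers are given in the same tumours, all lower than in cultured Panc02. The 2 left out, Epcam and Ceacam1, had positive log2 differences (up to 6.97), and 1 of them was called higher. Of the 6, Krt8 stood at 41.6% (range 25 to 52.6%) and Krt18 at 50.2% (24.7 to 68.9%) of the Panc02 mean. The others were Cdh1 at 33.1% (14.2 to 49.4%), Msln at 37.3% (21.3 to 47.5%), Krt19 at 16.6% (4.57 to 40.3%) and Krt7 at 4.84% (0.139 to 9.56%). The range of Fasn thus lay below those of Krt8 and Krt18, within those of Cdh1 and Krt19, at or below the lowest value of Msln and above the range of Krt7. Per length, Scd2 remained the highest of the 31 genes in the allografts at 415 ± 164 TPM (SD, n = 8), and Lss was the lowest at 4.57 ± 1.01 TPM.

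Muscle markers were highest in allografts female 2 and female 4, at 21602 and 35988 CPM against 719 to 10275 CPM in the other 6. The same tumours held the most adipocyte markers, a cell type that expresses Scd1 and Fasn, with sums of 763 and 748 CPM against 19.4 to 194 CPM in the other 6. The part of either cell type was not tested. Without these tumours, an alternative chosen after seeing the data, 27 of the 31 genes were lower and 2, the efflux genes, were higher, and Fasn (-2.42), Elovl6 (-3.40), Idi1 (-2.89) and Lss (-2.08) had log2 differences like those over all 8 tumours. Scd1 was then called lower (-0.82, adjusted p = 0.00335). Among the tumours, female 4 held the lowest level of 13 of the 18 mevalonate and sterol genes and male 8 the highest of 12 of 18. How often these tumours were lowest or highest over all genes was not counted. These counts are therefore not shown to be particular to the sterol genes. Of 16 other sterol and SREBP pathway genes 12 were lower and 0 higher, among them Pcyt2 (-1.40), Aacs (-1.28) and Lbr, a nuclear envelope sterol reductase (-1.14). Of 22 other fatty acid and storage genes 8 were lower and 7 higher, with Hsd17b12 at -1.37, Elovl7 at -2.39, the acyl-CoA synthetase Acsl3 at -0.84 and the dehydratase Hacd3 at -0.51. Those 4 had the smallest adjusted p. The 7 that were higher had log2 differences of 0.45 (Dgat1, of triglyceride synthesis) to 9.41 (Mlxipl, a transcription factor of lipid synthesis, at 0 CPM in Panc02), with Dgat2, also of triglyceride synthesis, at 2.11.

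**Figure D4:**
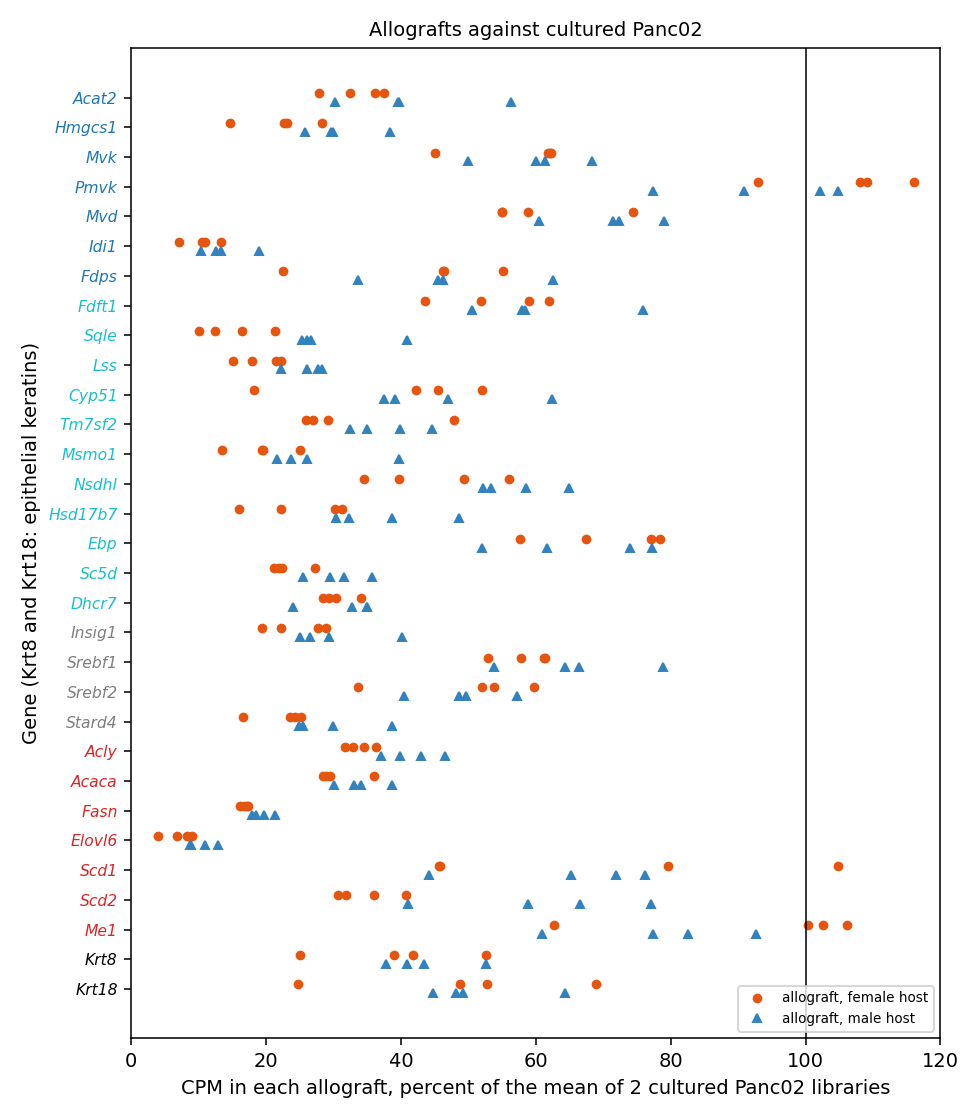
CPM of each synthesis, sensing and transport gene, and of the keratins Krt8 and Krt18, in each allograft as a percentage of the mean of the 2 cultured Panc02 libraries (vertical line at 100), with circles for female and triangles for male hosts. Fasn lies between 16.2 and 21.3% and Elovl6 between 3.9 and 12.8%, while Pmvk, Scd1 and Me1 reach the line.

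The efflux pumps stood high in fresh NK cells and allografts and were near absent in Panc02. Abca1 (chr4:53030787-53159895 on GRCm39), which loads cholesterol onto apolipoproteins, stood at 57.5, 57.7, 56 and 58.7 CPM in fresh NK cells and 6.02, 8.11, 3.1 and 5.6 CPM in monoculture (log2 change -3.26, SE 0.17, adjusted p = 7.37e-10). Abcg1 (chr17:31276649-31336962), which passes cholesterol on to lipoproteins, stood at 152.9, 130.0, 88.4 and 84.6 CPM and 57.2, 69.2, 40.2 and 58.9 CPM (log2 change -0.88, SE 0.13, adjusted p = 0.000266). Both fell in culture without overlap between the groups. Summed macrophage markers, of a cell type rich in both pumps, went from 30.8 to 85.3 CPM in fresh libraries to 8.62 to 50.2 CPM in monoculture, and their part in the fall was not tested.

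In Panc02 Abca1 had 18 counts over both libraries (0.0854 and 0.332 CPM), and Abcg1 had 0. Abca1 was thus lower than in fresh NK cells (log2 difference -8.05, SE 0.24, adjusted p = 5.46e-10), and Abcg1 in fresh cells was at least 3380-fold higher than a floor of 3 counts over the group. Co-cultures had 16, 24, 3 and 15 counts of Abcg1 (0.357, 0.513, 0.0873 and 0.328 CPM), called higher than in Panc02 (adjusted p = 0.00542). That call was lost without either Panc02 library (adjusted p up to 0.0794), and the counts were 0.0862 to 0.381 of what the NK share and the monoculture level would give. Abca1, with 41 counts over the 4 co-cultures, was not called. In the allografts Abca1 stood at 48.7, 75.7 and 117.4 CPM (log2 difference 8.58, SE 0.58, adjusted p = 1.33e-06) and Abcg1 at 29.6, 42.9 and 58.7 CPM, at least 1281-fold above the same floor (adjusted p = 7.46e-07). Both were higher beside macrophage markers at 3270 to 6772 CPM, and the macrophage part was not tested. Of 16 other LXR targets and sterol handling genes 10 were higher in the allografts and 0 lower, led by Apoe (9.85), Mylip (12.49), Ch25h (11.08) and Smpdl3a (11.15) on the log2 scale. Ch25h and Mylip had 0 CPM in both Panc02 libraries, so their log2 values are no measure of size. Against fresh NK cells, 10 of 15 of these genes were lower in Panc02 and 4 higher.

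**Figure D5:**
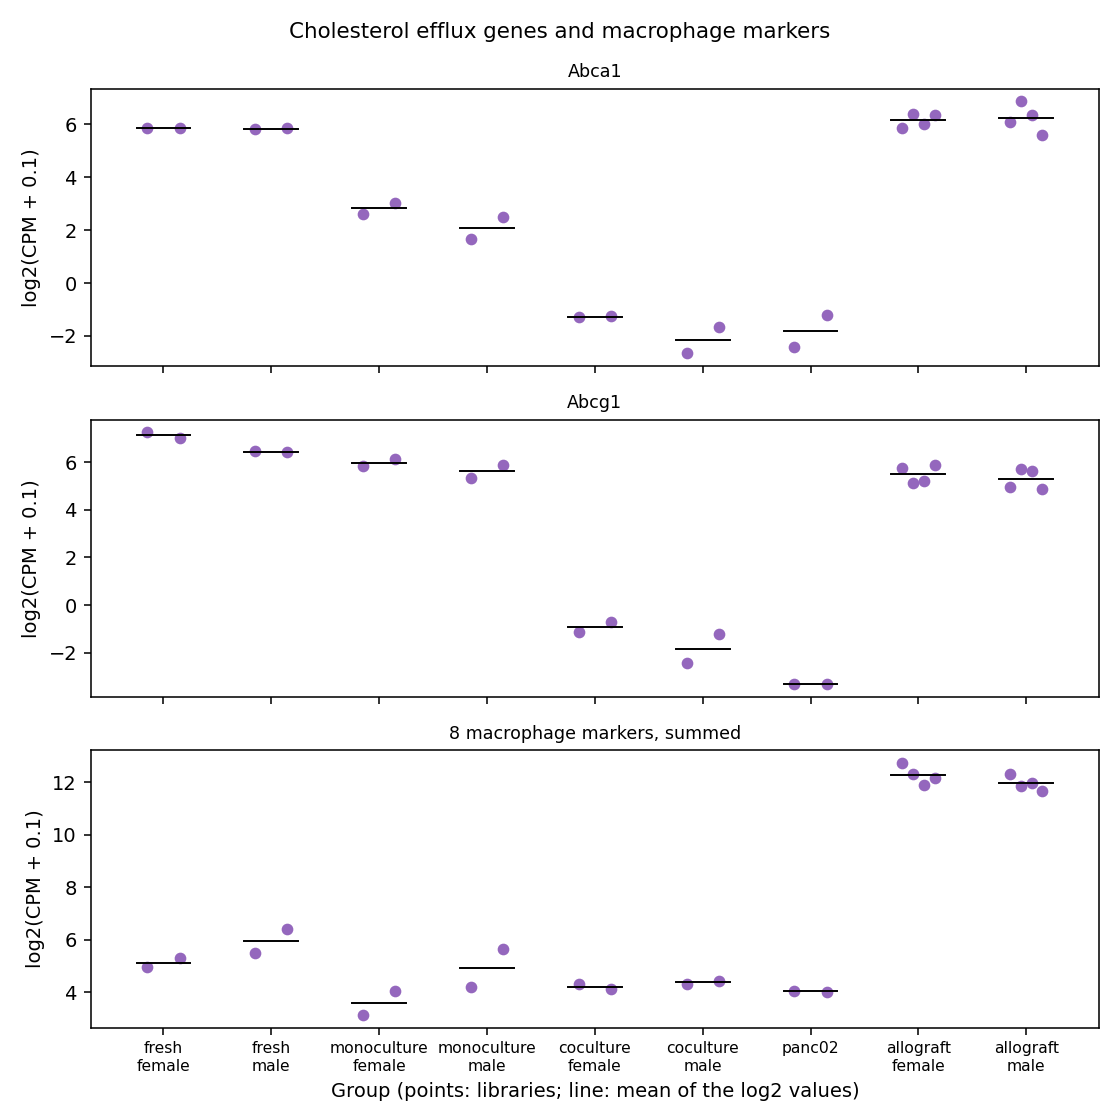
Abca1, Abcg1 and the sum of 8 macrophage markers as log2(CPM + 0.1) in each library (points) with the mean of the log2 values of each group (line). Abca1 lies at 56 to 58.7 CPM in fresh NK cells, at 3.1 to 8.11 CPM in monoculture, at 0.0582 to 0.332 CPM in the co-culture and Panc02 libraries, and at 48.7 to 117 CPM in the allografts.

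Between the sexes the differences were few. In fresh NK cells 3 of the 31 genes were lower and 1 was higher in female cells, where 5.61% of all 21414 genes tested were called lower and 4.42% higher. Sc5d stood at 23.7 and 28.2 CPM in female and 36.4 and 37 CPM in male cells (log2 difference -0.54, SE 0.09, adjusted p = 0.00222), and this call held in every setting. Hsd17b7 stood at 3.09 and 3.22 CPM against 4.48 and 6.51 CPM (log2 difference -0.84, SE 0.19, adjusted p = 0.00955), and Nsdhl at 16.1 and 14.8 CPM against 21.8 and 20.3 CPM (log2 difference -0.46, SE 0.13, adjusted p = 0.0384). Both calls were lost when either fresh female 1 or fresh male 5 was left out (adjusted p up to 0.175), and that of Nsdhl also without fresh female 2, fresh male 4 or co-culture male 4, and with the replicate number as a block (adjusted p = 0.0572). With only the groups compared the calls of Hsd17b7 and Nsdhl were lost as well (adjusted p = 0.124 and 0.0837). Abcg1 stood at 153 and 130 CPM against 88.4 and 84.6 CPM (log2 difference 0.69, SE 0.19, adjusted p = 0.0424), a call lost when any 1 of 8 of the 12 NK libraries was left out (adjusted p up to 0.316). Among 8 markers of red cell precursors 2 were called lower in females and 0 higher (median log2 difference -0.44). Their summed level was 1046 and 810 CPM in female and 990 and 527 CPM in male cells. The part of such cells was not tested. Srebf1 (-0.06), Srebf2 (0.03), Insig1 (0.35), Hmgcs1 (0.19), Sqle (0.04), Fasn (0.02), Scd1 (-0.73), Scd2 (0.16) and Abca1 (-0.01) were not called. Insig1 was called higher in females without fresh male 5 (log2 difference 0.62, adjusted p = 0.0194). Idi1, Fdft1, Dhcr7 and Acly, at -0.59, -0.31, -0.26 and -0.16, were not called, and each was called lower without a filter and without monoculture female 2 (adjusted p between 0.00774 and 0.0374 in the latter). DESeq2 also called Idi1, Dhcr7 and Acly lower (adjusted p = 0.0256, 0.0312 and 0.028). With counts halved Dhcr7 and Acly were called (0.0286 and 0.0456). Idi1 was called without monoculture female 1 (0.0218) and Fdft1 without fresh male 4 (0.0496). Without monoculture female 2 the median over all genes was itself -0.085, and 19.4% of all calls were higher in place of 44.1%. Of the other lists, 5 of 17 sterol genes were lower in female cells, with Rdh11 at -0.54, Insig2 at -0.61 and Mbtps2 at -0.50. A further 4 of 20 fatty acid and storage genes were lower (Elovl5 at -0.56, Acsl4 at -0.51, Fads3 at -1.31 and Elovl1 at -0.30). Of 15 LXR and handling genes 4 were higher and 2 lower (Apoe at 1.05, Soat2 at 0.70, Arl4c at 0.38, Abcg4 at -1.25).

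After culture 0 of the 31 genes were called between the sexes by edgeR's test, where 0.107% of all genes were called. Of the 31 genes 8 had an unadjusted p under 0.05, a larger share than the 6.86% of all genes. DESeq2 called 0 as well. Monoculture differences of the genes named throughout were between -0.27 (Hmgcs1) and 0.71 (Abca1) on the log2 scale, with Srebf1 at -0.05, Srebf2 and Insig1 at -0.11, Sqle at -0.13, Fasn at 0.01, Scd1 at 0.16, Scd2 at -0.01 and Abcg1 at 0.33. The 11 squalene and sterol genes all had negative log2 differences, with a median of -0.16, and 0 were called. Over all genes 41.3% of the differences were above 0 and the median was -0.03, which stood at -0.18 without monoculture female 2. The change from fresh to monoculture was compared between the sexes as an interaction, in which 0 of the 31 genes were called (2.55% of all genes) and 7 had an unadjusted p under 0.05 (16.6% of all genes). Fdps came nearest, with a level of 0.432 times the fresh one in female cells and 0.76 times in male cells (log2 difference of the changes -0.82, SE 0.21, adjusted p = 0.0555), and it was called by DESeq2 (adjusted p = 0.0172) and with the replicate block (adjusted p = 0.0241), as well as without a filter and without fresh female 1, fresh male 4 or co-culture female 2 (adjusted p between 0.007 and 0.0499). Hmgcs1 was called without fresh female 2 (log2 difference -0.58, adjusted p = 0.0363) and Abca1 without monoculture male 5 (1.22, adjusted p = 0.0415). Of the genes named throughout, Hmgcs1 and Insig1 stood at -0.46, Abcg1 at -0.37, Sqle and Scd2 at -0.17, Srebf2 at -0.14, Fasn at -0.01, Srebf1 at 0.00, Abca1 at 0.72 and Scd1 at 0.90. In co-culture 0 of 31 were called between the NK donor sexes (1.31% of all genes), 0 had an unadjusted p under 0.05 (5.82% of all genes) and DESeq2 called 0, while the NK share itself was higher in the female co-cultures (2.8 and 3.4% against 2.05 and 1.74%). Log2 differences there were within -0.20 (Scd2) and 0.03 (Srebf1) for Srebf1, Srebf2, Insig1, Hmgcs1, Sqle, Fasn, Scd1 and Scd2, and Abca1 and Abcg1 stood at 1.04 and 0.93.

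Between allografts of female and male hosts 0 of the 31 genes were called by edgeR's test, in a comparison that called 0.0146% of all 20560 genes, and 7 had an unadjusted p under 0.05 (15% of all genes). Sqle stood at 88.1, 68, 51.7 and 41.8 CPM in female hosts 1 to 4 and 108.3, 105.0, 110.8 and 169.4 CPM in male hosts 5 to 8 (log2 difference -0.95, SE 0.25, adjusted p = 0.192). Scd2 stood at 788.4, 594.6, 616.9 and 698.0 CPM and 796.6, 1494.6, 1139.4 and 1289.0 CPM (log2 difference -0.77, SE 0.20, adjusted p = 0.192). DESeq2 called both (adjusted p = 0.0255 and 0.0326), where it called 544 genes in all against 3 by edgeR. In Sqle, Scd2, Lss, Acly and Fasn, 5 of the 31 genes, every female host tumour lay below every male host tumour, and 0 genes showed the reverse. Over all genes with a mean of 10 counts or more, 7.03% were apart in that direction and 2.6% in the reverse. Without the 2 tumours richest in muscle markers, both of female hosts, the log2 differences of Sqle and Scd2 were -0.78 and -0.71, and that of Scd1 went from 0.14 to -0.46 (adjusted p = 0.322). Srebf1 (-0.13), Srebf2 (0.06), Insig1 (-0.27), Hmgcs1 (-0.45), Fasn (-0.16), Scd1 (0.14), Abca1 (-0.10) and Abcg1 (0.22) were not called.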

How the data were processed

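Gene counts from polyA-selected, stranded libraries were used as deposited. The deposited read counts were made with featureCounts 2.0.6 after cutadapt 4.4, HISAT2 2.2.1 and SAMtools 1.19.2 on GRCm39, per the submitters' processing notes. Per the file headers, exons were summed by gene with strand setting 2, mates were counted singly and multi-mapping reads were counted, so fragments can count more than once. The allografts were in one table and the cultured Panc02 libraries in the table of the NK cells, although the labels name the other table for Panc02. Libraries held 13025549 to 46842646 counts, and the sample number limits precision more than this depth. No 2 libraries of a group agreed within counting noise.

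Tests were edgeR 4.0.16 quasi-likelihood fits (R 4.3.3) with TMM scaling and filterByExpr, over 12 NK libraries, 6 for co-culture or fresh NK cells against Panc02, 10 for allografts against Panc02 and 8 for allografts alone, with Benjamini-Hochberg adjustment over all genes. The alternatives were median-ratio and total-count scaling, DESeq2 1.42.0, no filter, counts halved, only the groups compared, the replicate number as a block and each library left out. Replicate numbers were checked for pairing: deviations of same-numbered samples correlated by 0.002 to 0.074, so the numbers were not taken to pair them. On simulated counts, 200 genes changed 2-fold were recovered at 100% in the monoculture comparison, and at 2.5% in allografts against Panc02 and 7% between host sexes, where 4-fold changes were recovered at 82 and 95%. Every simulated gene had the same common spread of its fit, so these rates need not hold for genes that vary less or more. Of the simulated calls, 7.83% were false in the monoculture comparison and 6.1% in Panc02 against fresh NK cells. The false share was 0 to 3.85% in the other comparisons simulated. Members and lists were chosen with earlier results of these data known. Library values are given for called genes, up to 6 per role by smallest adjusted p, for called genes opposing their role's majority and for calls lost without 1 library, and 10 genes are named throughout. Up to 4 genes are named per further list, of which some are not reported here.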

Additional observations from a re-analysis of the deposited data

Results flagged for a closer look

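Each of the 31 genes was examined in the 4 female-host and the 4 male-host allografts for a tumour far from the other 3, by Dixon's criterion on the gap to the nearest tumour over the group's range. In 62 groups tested 5 were marked, where chance marks about 1 in 20 groups, or 3.1. Mvk stood at 18.5 CPM in female 4 and at 25.4 to 25.6 CPM in the other female-host tumours. Tm7sf2 stood at 11.9 CPM in female 1 and at 6.44 to 7.26 CPM in the others. Acaca stood at 68 CPM in female 2 and at 53.7 to 55.6 CPM in the others, and Me1 at 83.8 CPM in female 3 and 134 to 142 CPM in the others. Among male hosts, Sqle stood at 169 CPM in male 8 and at 105 to 111 CPM in the others.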

How the results depend on the processing

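The 9 genes that fell and 13 that rose in monoculture became 9 to 10 and 13 to 14 under every alternative and left-out library. In fresh cells the 3 genes lower in females became 6 with DESeq2, 7 without a filter, 5 with counts halved and 1 with only the groups compared. Leaving out 1 library gave 1 (without fresh female 1 or fresh male 5) to 7 (without monoculture female 2) lower and 0 to 1 higher. In monoculture 1 gene was called lower in females without a filter. The sex difference in the culture response called 1 gene lower, Fdps, with DESeq2, without a filter and with the replicate block, and leaving out 1 library gave 0 to 1 lower and 0 to 1 higher. In co-culture against Panc02, total-count scaling gave 8 lower in place of 5. Leaving out 1 library gave 2 to 8 higher (3 without Panc02 1, 2 without Panc02 2) and 3 to 4 lower (3 without co-culture female 1 or Panc02 1). DESeq2 called 2 genes lower in female-host allografts. Why these counts moved was not tested. No value changed direction past the threshold.

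With the replicate number as a block, 13 genes rose and 9 fell in monoculture, and between sexes 1 was higher and 2 lower in fresh cells and 0 were called in monoculture. Over all genes, the share of calls that were higher between sexes in fresh cells went from 44.1% to 18.2% without a filter. It was 26.8% with counts halved and 19.4% without monoculture female 2. For the culture response it went from 39.4% to 61.1% with median-ratio scaling. The 2 Panc02 libraries limit each comparison with the line. In the allografts most simulated 2-fold changes were missed, a rate that was not measured for the genes described here.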
